A study of Arabidopsis thaliana with 24 samples.

Results

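The comparison described here set roots of an Arabidopsis thaliana double mutant, bzip1/bzip53, against wild-type roots that received no added salt. Its members were the 3 arrays titled KO_C and the 3 arrays titled WT_C, 6 of the 24 arrays in the series, and they were chosen by title alone. The study as a whole followed both genotypes through salt stress: the other 18 arrays came from roots harvested 1 h, 3 h or 6 h after 150 mM NaCl was added, with 3 arrays for each genotype and time. Both genotypes share the ecotype Col-0, an age of 6 weeks and hydroponic culture, and the tissue is labelled as seedling roots. The wild-type control arrays are Col-0 with neither gene disrupted and no added NaCl, and the mutant control arrays carry disruptions of both bZIP1 and bZIP53 and also received no NaCl. The labels state neither where each gene is interrupted nor how many plants or hydroponic vessels stand behind a biological replicate. Every p-value below therefore measures the spread between arrays within the 8 groups, over all 24 arrays unless another fit is named. Salt-treated roots were taken shortly before the end of the light period, and the labels give no separate harvest time for the untreated roots. Each array gave a log2 value, computed by the submitters with robust multi-array averaging (RMA), for 22810 probe sets, of which 64 controls were left out and 22746 were tested. In whole-root RNA, fewer cells of a type and less RNA per cell cannot be told apart.

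bZIP proteins bind DNA as dimers held together by a leucine zipper. bZIP1 and bZIP53 belong to the S1 group, whose members pair preferentially with bZIPs of the C group and act below the energy-sensing kinase SnRK1, with genes of amino acid breakdown among their known targets. Roots also hold non-green plastids and mitochondria, each with a small genome of its own. Plastid genes are transcribed partly by a polymerase whose core subunits, RpoA, RpoB, RpoC1 and RpoC2, are encoded in the plastid itself, and partly by a phage-type polymerase imported from the cytosol.

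Before any difference is read, 2 of the 6 arrays need a description. Mutant array 1 carried signal from control transcripts that were at background on the other 23 arrays: its dap3 probe set read 8.20, against at most 3.43 elsewhere. The 25S ribosomal RNA probe set read 11.93 on it, below the 12.52 to 12.71 of the other 5 control arrays. The salt-treated arrays read 13.03 to 13.47 for 25S, above all 6 control arrays. The part of this gap in changes under salt was not tested. On mutant array 1 the actin probe sets differed by 1.40 between the 3′ and 5′ ends of the transcript, a common measure of RNA integrity. The other 5 control arrays lay at 0.62 to 0.94 and the salt-treated arrays at 0.69 to 1.57. The same measure for the GAPDH probe sets was -0.065 on mutant array 1, -0.25 to -0.073 on the other 5 and -0.25 to 0.095 under salt. Wild-type array 3 had no such control signal. Over all probe sets its correlation was r = 0.985 and 0.988 with wild-type arrays 1 and 2 and r = 0.990, 0.991 and 0.989 with mutant arrays 1 to 3, a description over genes and not a test. The median SD of a probe set was 0.11 among the 3 wild-type arrays and 0.13 among the 3 mutant arrays. From 2 arrays, which is not directly comparable with 3, it was 0.08 for wild-type arrays 1 and 2 and 0.07 for mutant arrays 2 and 3. Results are therefore given with and without mutant array 1, and where it matters without wild-type array 3 as well. The part of either array in a result was not tested beyond these values.

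Few probe sets separated the genotypes without salt. A probe set was called when its adjusted p was under 0.05 in limma's moderated test, fitted to all 24 arrays and adjusted by Benjamini-Hochberg over all 22746 probe sets. The mutant was lower for 42 probe sets (0.185%) and higher for 6 (0.0264%), 48 in all (0.211%). The median value of an array was 6.62 to 6.67 in wild type and 6.53 to 6.59 in the mutant, and with every array centred on its median 23 probe sets were called lower and 14 higher. The median difference over all probe sets was -0.02, with quartiles at -0.12 and 0.07. At an unadjusted p under 0.05 there were 1612 lower and 663 higher probe sets. A difference of at least 2-fold was reached by 17 of the lower calls and 2 of the higher calls. In each of the 48 the 3 mutant arrays lay wholly on one side of the 3 wild-type arrays, while over all probe sets 9.87% were separated in this way with the mutant lower and 4.26% with the mutant higher. Mutant array 1 was the lowest of all 6 arrays in 34 of the 42 lower calls. The count depended on how the spread was estimated: fitted to the 6 control arrays alone, 2 probe sets were called, both lower.

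Of the 48, 26 are listed against a single gene. Plastid genes made up 15 of these and mitochondrial genes 4, all lower in the mutant. The nuclear genome supplied 7, of which 4 were lower and 3 higher, which is 0.0522% of the 13421 nuclear probe sets with a single gene. Another 5 called probe sets are listed against several genes and 17 against none in the gene table used here.

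**Figure D1:**
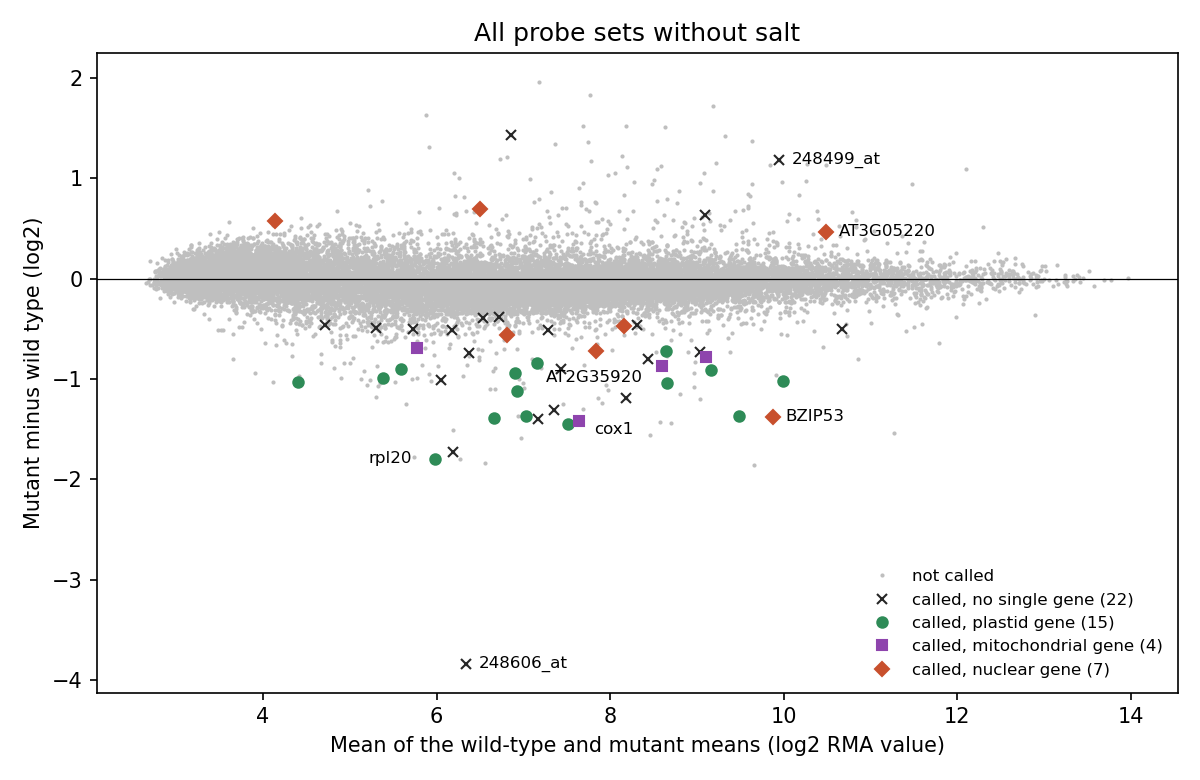
Mutant minus wild type (vertical axis, log2) against the mean of the 2 group means (horizontal axis, log2 RMA value) for all 22746 probe sets; grey points were not called. The 48 called probe sets are marked by the genome of their gene, and all plastid and mitochondrial ones lie below 0.

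BZIP53, one of the disrupted genes, was lower in all 3 mutant arrays. It read 10.37, 10.47 and 10.86 on wild-type arrays 1 to 3 and 9.24, 9.17 and 9.16 on mutant arrays 1 to 3. The groups were well apart, and the mutant arrays differed among themselves by less than the wild-type arrays did. Mutant BZIP53 was 1.38 lower on the log2 scale (SE 0.10, a 2.60-fold difference, adjusted p = 2.18e-07). The mutant mean of 9.19 ± 0.04 (SD, n = 3) was still far above the level of 5 taken here as near background. Whether this probe set lies inside or outside the interrupted stretch of the gene cannot be read from the labels. The difference was -1.40 without mutant array 1, and in the fit to the 6 control arrays alone BZIP53 had an adjusted p of 0.0953.

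The probe set furthest from 0 was 248606_at, which the gene table pairs with no gene. It read 8.15, 8.18 and 8.44 in wild type and 4.23, 4.47 and 4.56 in the mutant. Every mutant array fell to near background, so the difference of -3.84 (SE 0.19, adjusted p = 3.34e-10) has no exact size. It was called in every fit that left out an array, and also in the fit to the 6 control arrays alone (adjusted p = 0.000108). No probe set is named as bZIP1 in the table used here, so the second targeted gene was not analysed by name. bZIP44, another member of the S1 group, read 9.36, 9.09 and 9.12 in wild type and 9.14, 9.15 and 9.04 in the mutant, a difference of -0.08 (SE 0.10) that was not called.

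**Figure D2:**
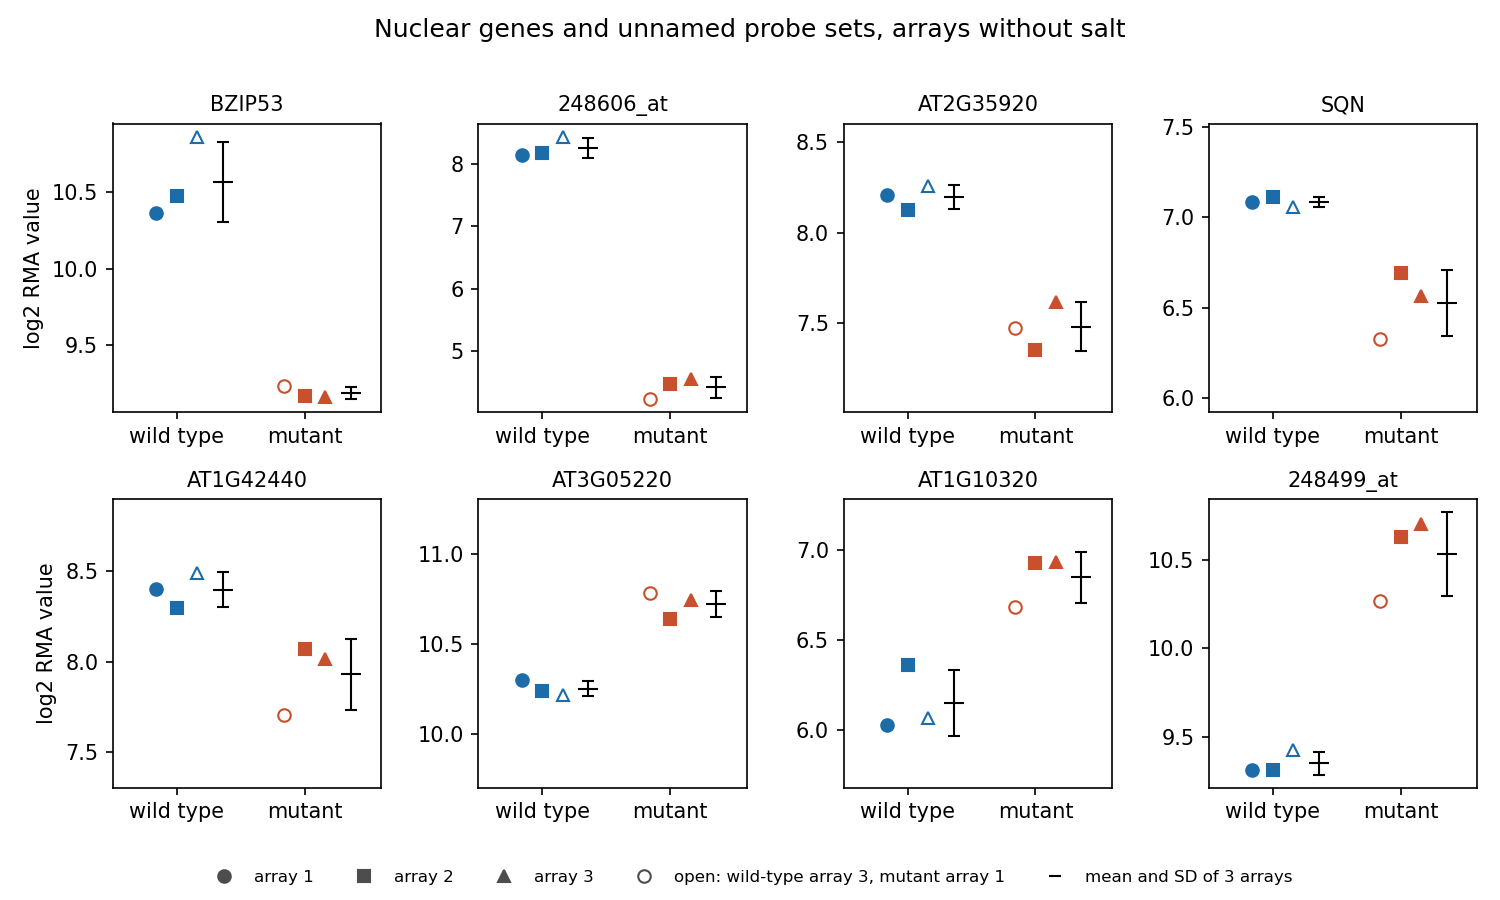
log2 RMA value on each of the 6 control arrays for 6 of the 7 called nuclear genes and 2 called probe sets without a gene; symbols give the array number, open symbols mark wild-type array 3 and mutant array 1, and bars give the mean and SD of 3 arrays. TPS-CIN, the seventh nuclear gene, was near background and is left out. In all 8 panels the genotypes do not overlap.

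3 other nuclear genes were lower in the mutant. AT2G35920 read 8.21, 8.13 and 8.26 in wild type and 7.47, 7.35 and 7.62 in the mutant. The arrays of each genotype lay close together, and the difference was -0.72 (SE 0.10, 1.65-fold, adjusted p = 0.00125). It was called whichever of the 6 arrays was left out. SQN encodes cyclophilin 40, a protein needed for full microRNA activity in Arabidopsis. Its values were 7.08, 7.11 and 7.06 in wild type and 6.33, 6.69 and 6.56 in the mutant, with mutant array 1 the lowest. The SQN difference was -0.56 (SE 0.11, adjusted p = 0.0390), and -0.46 without mutant array 1 (adjusted p = 0.185). AT1G42440 read 8.40, 8.30 and 8.49 in wild type and 7.71, 8.07 and 8.02 in the mutant. That difference of -0.47 (SE 0.09, adjusted p = 0.0424) was also -0.36 and no longer called without mutant array 1. SQN and AT1G42440 each lost their call without any one of the 3 wild-type arrays too, when their adjusted p lay between 0.0597 and 0.161.

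3 nuclear genes were higher in the mutant, AT3G05220 and AT1G10320 by less than 2-fold and TPS-CIN near background. AT3G05220 read 10.30, 10.24 and 10.22 in wild type and 10.78, 10.64 and 10.74 in the mutant, a difference of 0.47 (SE 0.07, adjusted p = 0.00489). It was the steadiest of the 3 and was called whichever single array was left out. AT1G10320 read 6.03, 6.36 and 6.07 in wild type and 6.68, 6.93 and 6.93 in the mutant, a difference of 0.69 (SE 0.14, adjusted p = 0.0414). Its call was lost in 5 of the 6 fits that left out an array, with the exception of the fit without wild-type array 2, and its difference stayed between 0.63 and 0.80. TPS-CIN encodes the synthase that makes the monoterpene 1,8-cineole in roots. Both of its means were near background, 3.85 ± 0.05 in wild type and 4.42 ± 0.29 in the mutant (SD, n = 3), so its difference has no exact size. The adjusted p of TPS-CIN was 0.0390 with all arrays and 0.00243 without mutant array 1, and its call was lost without any other one of the 6 arrays (adjusted p between 0.0720 and 0.161).

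The probe set 248499_at, listed against no gene, was higher in the mutant on every array. Its values were 9.31, 9.31 and 9.42 in wild type and 10.27, 10.63 and 10.71 in the mutant, a difference of 1.19 (SE 0.11, adjusted p = 7.59e-06). Among the other probe sets without a single gene, 256994_s_at was 1.43 higher (SE 0.25, adjusted p = 0.0162) and 253161_at was 1.72 lower (SE 0.36, adjusted p = 0.0482). The first of these is listed against several genes, which the array cannot tell apart, and lost its call without wild-type array 2 or mutant array 1. The call of 253161_at held in 1 of the 6 fits that left out an array, the one without mutant array 3.

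Plastid-encoded genes were the largest named group. Of 69 measured, 15 were lower in the mutant and 0 higher by limma's test, and 49 had an unadjusted p under 0.05. Over all 22746 probe sets 0.185% were called lower and 0.0264% higher, and 2275 had an unadjusted p under 0.05. The difference was below 0 in 65 of the 69, with a median of -0.55 beside -0.02 over all probe sets. In 43 of the 69 all mutant arrays were below all wild-type arrays, beside 9.87% of all probe sets. The median value of the 69 genes was 7.86, 7.68 and 7.82 on wild-type arrays 1 to 3 and 6.62, 7.09 and 7.07 on mutant arrays 1 to 3. Mutant array 1 was thus the lowest, and mutant arrays 2 and 3 still lay below all wild-type arrays. It was the lowest mutant array for 56 of the 69 genes. Without it the median difference was -0.37 and 10 plastid genes were called. Without wild-type array 3 as well, 4 were called, and in the fit to the 6 control arrays alone none was. Leaving out mutant array 3 instead gave 33. The labelling protocol named in the labels primes from poly(A) tails, and most organelle transcripts lack a stable tail. The values may thus read only part of the organelle transcripts, and which part was not tested.

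**Figure D3:**
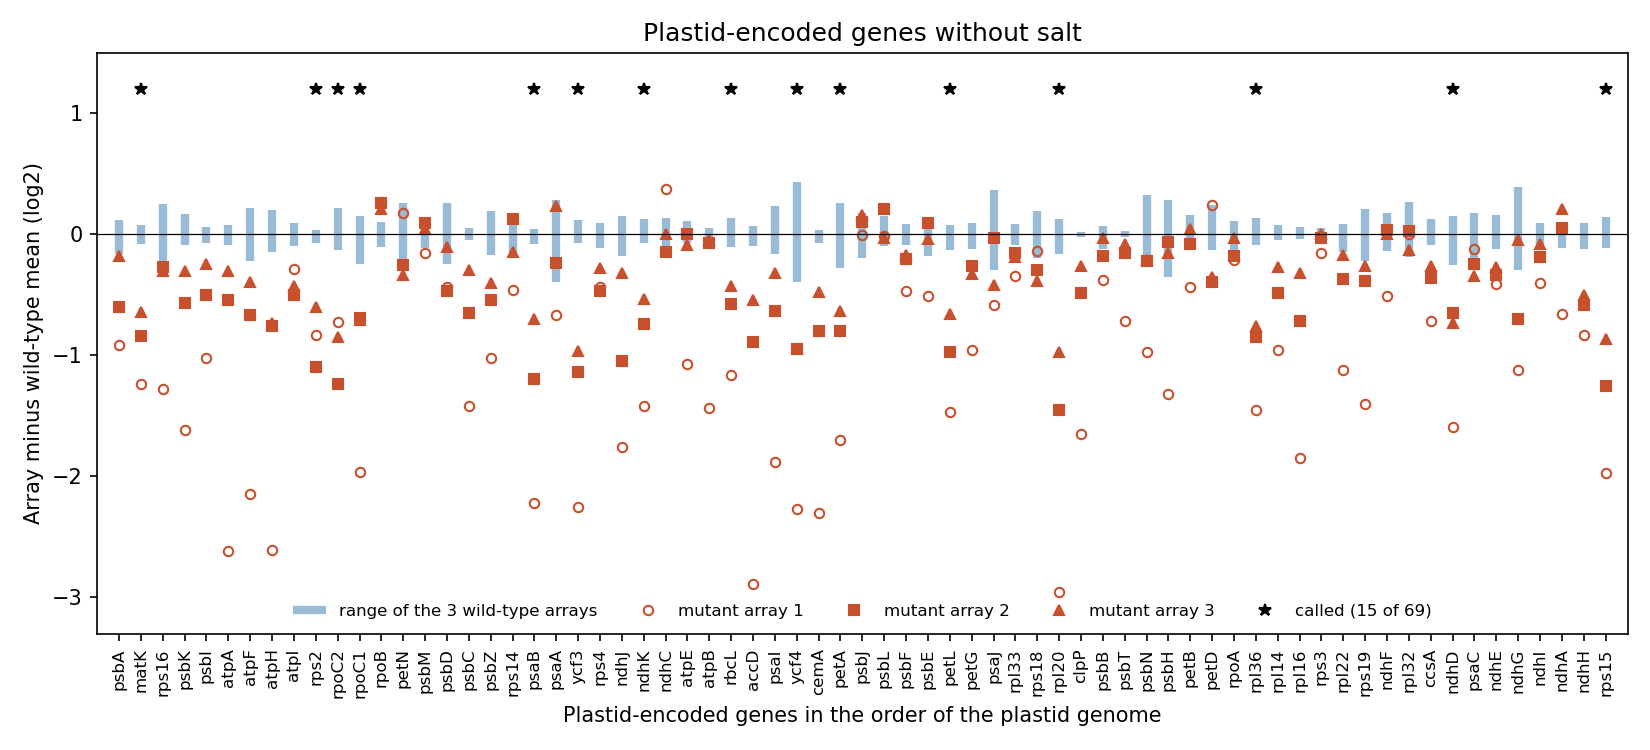
Each mutant array minus the wild-type mean (vertical axis, log2) for 69 plastid-encoded genes in the order of the plastid genome (horizontal axis); bars span the 3 wild-type arrays and stars mark the 15 called genes. Open circles, mutant array 1, lie lowest for 56 genes, and mutant arrays 2 and 3 lie closer to the wild-type range.

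Among plastid genes for gene expression, rpoC2 and rpoC1, 2 of the 4 genes for core subunits of the plastid polymerase, and several ribosomal protein genes were lower. rpoC2 read 7.25, 7.28 and 7.60 in wild type and 6.65, 6.14 and 6.53 in the mutant, a difference of -0.94 (SE 0.15, adjusted p = 0.00568). Here mutant array 1 was the highest of the 3, and the difference without it was -1.05 (adjusted p = 0.00765). rpoC1 was 1.12 lower (SE 0.23, adjusted p = 0.0482), with mutant array 1 at 5.52 and the other mutant arrays at 6.80 and 6.78. Without mutant array 1 the rpoC1 difference was -0.70 and its adjusted p 0.0918. rpoB, near background in both genotypes, lay higher on every mutant array than on any wild-type array, with a difference of 0.24. The rpoA difference was -0.14 with overlapping arrays, and neither gene was called.

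rps2 and rps15, which encode proteins of the small ribosomal subunit, were called out of 8 such genes measured. rps2 read 7.61, 7.50 and 7.60 in wild type and 6.74, 6.48 and 6.97 in the mutant (difference -0.84, SE 0.12, adjusted p = 0.00147). Its difference was -0.85 without mutant array 1. rps15 read 7.86, 7.68 and 7.60 in wild type and 5.74, 6.46 and 6.85 in the mutant (difference -1.36, SE 0.21, adjusted p = 0.00568). Both genes kept their call whichever array was left out. For the large subunit 2 of 7 genes were called: rpl36 at -1.02 (SE 0.16, adjusted p = 0.00568) and rpl20 at -1.79 (SE 0.32, adjusted p = 0.0164). rpl20 was the furthest from 0 of all plastid genes and also one of the most uneven, at 3.93, 5.43 and 5.91 on the mutant arrays against 6.72, 6.91 and 7.01 in wild type. Without mutant array 1 its difference was -1.21 (adjusted p = 0.0257). matK encodes the maturase that helps splice plastid introns. It read 9.62, 9.54 and 9.70 in wild type and 8.38, 8.78 and 8.98 in the mutant (difference -0.91, SE 0.12, adjusted p = 0.000882), and kept its call without any single array and without both arrays described above (adjusted p = 0.0284).

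Genes of the photosynthetic apparatus were called in photosystem I, the cytochrome b6f complex and the NADH dehydrogenase-like complex, and whether the complexes differ in their share of calls was not tested. psaB encodes one of the 2 core proteins of photosystem I and ycf3 and ycf4 encode factors that assemble that complex. psaB read 10.22, 10.09 and 10.20 in wild type and 7.95, 8.97 and 9.47 in the mutant (difference -1.37, SE 0.23, adjusted p = 0.0123). Its difference without mutant array 1 was -0.95 (adjusted p = 0.0102). ycf3 was 1.45 lower (SE 0.24, adjusted p = 0.0110) and ycf4 1.39 lower (SE 0.25, adjusted p = 0.0177), and without mutant array 1 these became -1.05 and -0.95, both still called. The other core protein gene, psaA, had a difference of -0.22 with overlapping arrays, and its means of 4.87 and 4.65 were near background. Of the 15 photosystem II genes none was called by limma, 10 had an unadjusted p under 0.05, and their median difference was -0.34, or -0.19 without mutant array 1. In the cytochrome b6f complex 2 of 6 genes were called, petA, which encodes cytochrome f (-1.04, SE 0.21, adjusted p = 0.0381), and petL (adjusted p = 0.0190), whose means of 4.92 and 3.88 were near background. petA and petL were not called without mutant array 1 (adjusted p = 0.121 and 0.114).

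The 6 plastid genes for ATP synthase had a median difference of -0.79, or -0.44 without mutant array 1. None was called by limma, although all 6 had an unadjusted p under 0.05. atpH, which encodes the ring-forming c subunit, changed its call with the arrays used. It read 7.48, 7.56 and 7.83 in wild type and 5.01, 6.87 and 6.89 in the mutant. Its difference of -1.37 missed the threshold with all arrays (adjusted p = 0.0696), and the smaller difference of -0.75 without mutant array 1 was called (adjusted p = 0.0289). Of 10 genes for the plastid NADH dehydrogenase-like complex 2 were called, ndhK (-0.90, SE 0.18, adjusted p = 0.0425) and ndhD (adjusted p = 0.0482), the latter near background in the mutant. Neither was called without mutant array 1. rbcL encodes the large subunit of Rubisco and read 9.14, 8.89 and 8.97 in wild type and 7.84, 8.43 and 8.57 in the mutant. Its difference was -0.72 (SE 0.14, adjusted p = 0.0423), and -0.50 without mutant array 1 (adjusted p = 0.154).

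Leaving out 1 array at a time sorted the 15 plastid calls. matK, rps2, rpoC2, rpl36, rps15 and ycf3 were called whichever array was missing. psaB lost its call without wild-type array 1 and ycf4 without wild-type array 2 or 3. rpl20 lost it without any one of the wild-type arrays, petL without wild-type array 1 or 2 or mutant array 1, and petA without wild-type array 1 or 3 or mutant array 1. rbcL, rpoC1 and ndhD were not called without any one wild-type array or mutant array 1, and ndhK was called only in the fit without mutant array 3 among these 6.

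The differences did not run evenly along the plastid genome. rps2, rpoC2 and rpoC1 lie next to each other among the measured genes and were all called. The next gene, rpoB, was not, but its means of 3.45 and 3.69 were near background, where a fall could not be read. In another stretch accD, psaI, ycf4, cemA and petA differed by -1.44, -0.94, -1.39, -1.19 and -1.04, and the following psbJ and psbL by 0.08 and 0.05. Of these only ycf4 and petA were called, and accD and cemA (adjusted p = 0.106 and 0.0993) and psaI were not. Without mutant array 1 the differences of accD, psaI, ycf4, cemA and petA were -0.72, -0.48, -0.95, -0.64 and -0.72. psbM, rps3 and rpl32 were bright in both genotypes and differed by less than 0.1. psbM, a small photosystem II protein gene, read 11.46, 11.32 and 11.50 in wild type and 11.28, 11.52 and 11.47 in the mutant. Its arrays overlapped fully.

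Of 16 mitochondrion-encoded genes 4 were lower and 0 higher by limma's test, beside 0.185% and 0.0264% of all probe sets. An unadjusted p under 0.05 was found for 11 of the 16, beside 2275 of all 22746 probe sets, and the median difference was -0.49. cox1 encodes the catalytic subunit of cytochrome c oxidase. It read 8.37, 8.26 and 8.43 in wild type and 6.57, 6.98 and 7.26 in the mutant, a difference of -1.42 (SE 0.17, 2.67-fold, adjusted p = 0.000292). Its groups did not overlap, and it kept its call without any single array, without mutant array 1 (-1.23, adjusted p = 0.00272) and without both arrays described above (-1.19, adjusted p = 0.0218). nad4, a core subunit gene of respiratory complex I, read 8.99, 9.04 and 9.08 in wild type and 7.74, 8.22 and 8.53 in the mutant (difference -0.87, SE 0.15, adjusted p = 0.0127). ccb382, a gene for cytochrome c maturation, was 0.78 lower (SE 0.15, adjusted p = 0.0374), and the open reading frame orfX was 0.69 lower (SE 0.12, adjusted p = 0.0162). Without mutant array 1 nad4, ccb382 and orfX were not called (adjusted p = 0.0518, 0.156 and 0.0970). nad4 also lost its call without wild-type array 2, orfX without any one wild-type array, and ccb382 without any array but mutant array 3. The median over the 16 genes was -0.35 without mutant array 1. matR and ccb203 lay close to 0, at -0.04 and -0.06, with matR near background in both genotypes (means of 4.09 and 4.05). The Col-0 nuclear genome holds a large, nearly identical copy of mitochondrial DNA, so a mitochondrial probe set may also read nuclear sequence.

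The few nuclear genes examined here for photosystems and organelle transcripts gave no call. A set of 8 nuclear photosystem and antenna genes was put together after their values were seen. It had 0 calls by limma, beside 0.211% of all probe sets, and a median of -0.22. Of the 8, 4 had an unadjusted p under 0.05, beside 2275 of all 22746 probe sets. LHCB4.1, a light-harvesting antenna gene and the one measured member of 20 green tissue markers, read 8.04, 8.06 and 8.25 in wild type and 7.56, 7.53 and 7.88 in the mutant. Its groups did not overlap, and its difference of -0.46 (SE 0.11) had an adjusted p of 0.104. PSAN, a photosystem I subunit gene, read 6.04, 6.19 and 6.59 in wild type and 5.67, 5.68 and 5.57 in the mutant, a difference of -0.64 (adjusted p = 0.272). The part of green tissue in the plastid result was not tested. The gene for a phage-type organelle polymerase, AT5G15700, differed by -0.02, and 8 OTP genes, whose proteins process organelle transcripts, had 0 calls by limma, none at an unadjusted p under 0.05, and a median of -0.01.

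The salt-treated arrays gave the same genotype comparison in other roots, although they also entered the fit that estimated the spread for the control comparison. At 1 h limma called 5 of all probe sets (0.022%; 0.0132% lower and 0.00879% higher). At 3 h it called 2330 (10.2%; 5.92% lower and 4.32% higher), and at 6 h 134 (0.589%; 0.514% lower and 0.0747% higher). Of the 48 control calls, 5 were called in the same direction at 1 h, 20 at 3 h and 9 at 6 h, and 0 in the opposite direction at any of them. All 4 that were called the same way at every time were BZIP53, 248606_at, AT2G35920 and 1 probe set without a gene that was higher. Of the 48, 24 were called at no salt time.

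BZIP53 differed by -2.27, -2.14 and -1.93 at 1 h, 3 h and 6 h. Under salt the wild-type mean stood between 10.93 and 11.01, and the mutant mean was 8.74 at 1 h. The change from the control difference was -0.76 at 3 h (SE 0.14, adjusted p = 0.0158), and at 1 h and 6 h it was not called (adjusted p = 0.0800 and 0.217). AT2G35920 differed by -0.72, -0.92 and -0.67, close to its control difference. SQN differed by -0.49, -0.90 and -0.47 and was called at 3 h (adjusted p = 0.000194). AT3G05220 differed by 0.22, 0.40 and 0.06 and was called at 3 h (adjusted p = 0.00215). 248499_at differed by 1.23, 0.55 and 0.44, and its difference had narrowed at 3 h (change -0.64, SE 0.16, adjusted p = 0.0458).

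Among the organelle genes the differences under salt varied with time. Of the 19 organelle control calls, 0 were called by limma at 1 h, when 8 lay above 0. At 3 h 5 were called lower (cox1, matK, rps2, rbcL and ndhK) and none lay above 0. At 6 h 0 were called and 18 lay above 0, all but ndhK. The median over all 69 plastid genes was -0.0049 at 1 h, -0.26 at 3 h and 0.23 at 6 h. The test of the change itself called 9 of the 19 at 6 h, where it called 18 of all probe sets (0.0791%). These 19 were chosen for a control difference below 0, and the change subtracts that same difference, so the choice favours upward changes and the shares cannot be set against each other. cox1 went from -1.42 without salt to 0.48 at 6 h, a change of 1.90 (SE 0.24, adjusted p = 0.00338). ycf3 went from -1.45 to 0.51, a change of 1.96 (SE 0.34, adjusted p = 0.0318), and matK from -0.91 to 0.32, a change of 1.22 (SE 0.17, adjusted p = 0.00499). At 1 h limma called 0 changes over all probe sets, with 830 at an unadjusted p under 0.05, and at 3 h 331 (1.46%), none of them among the 19. Of the 29 control calls that are not organelle genes with a single name, 25, 26 and 23 had the same sign at 1 h, 3 h and 6 h, beside 59.6%, 57.8% and 58.9% of all probe sets.

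**Figure D4:**
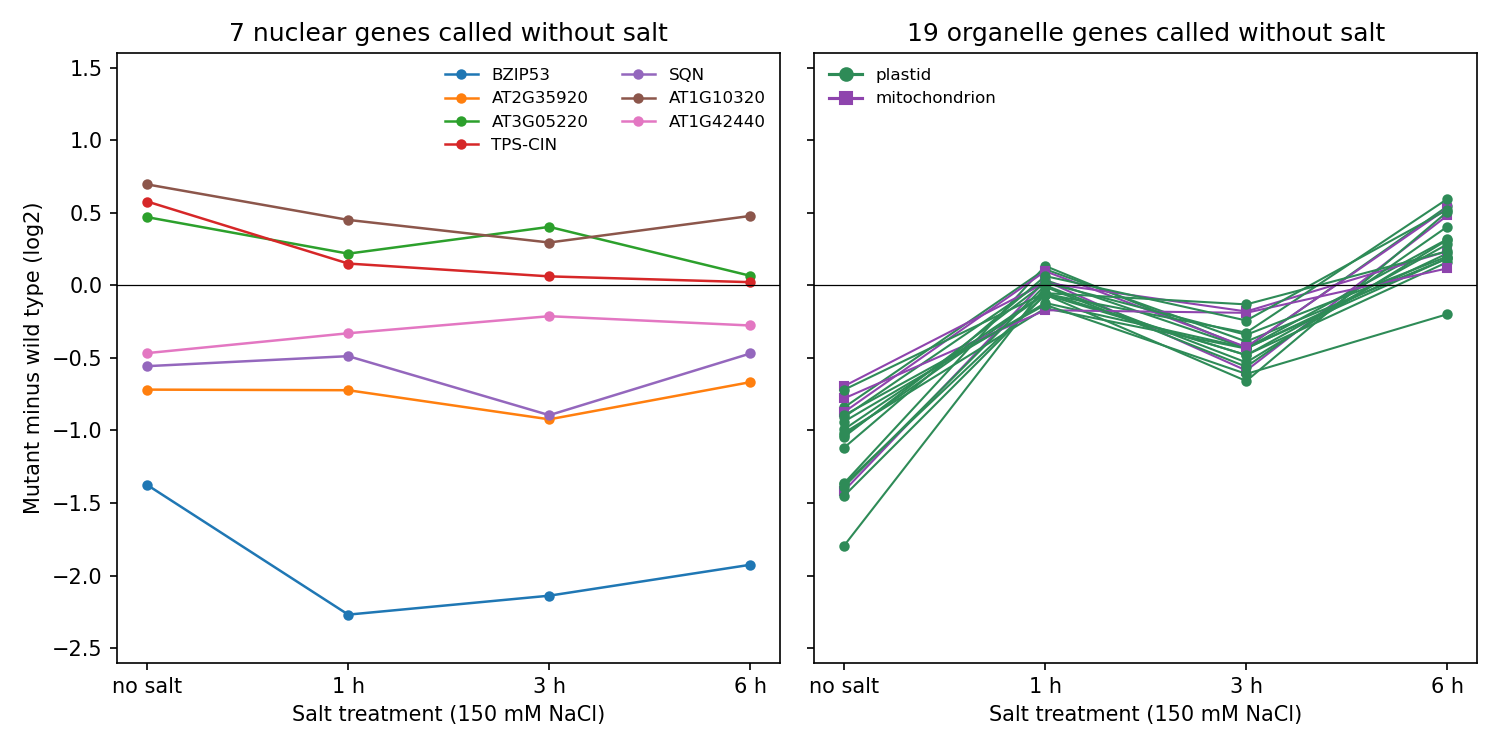
Mutant minus wild type (vertical axis, log2, difference of means of 3 arrays each) without salt and at 1 h, 3 h and 6 h of 150 mM NaCl (horizontal axis) for the genes called without salt. The 7 nuclear genes kept their sign at all 4 points, while the 19 organelle genes lay near 0 at 1 h, below 0 at 3 h and, but for ndhK, above 0 at 6 h.

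Leaving out mutant array 1 reduced the number of calls from 48 to 29, with 23 lower (0.101%) and 6 higher (0.0264%), and 20 of the 29 were among the 48. Without wild-type array 3 as well, 17 were called, of which 12 were among the 48. Some genes were called only without mutant array 1. EXPB2 encodes a beta-expansin, a cell-wall loosening protein, and read 8.20, 7.67 and 7.87 in wild type and 7.48, 7.06 and 7.12 in the mutant. Its difference went from -0.69 (adjusted p = 0.0667) to -0.82 (adjusted p = 0.0495). AT3G46340 read 4.89, 5.45 and 5.70 in wild type and 4.97, 4.30 and 4.27 in the mutant, so mutant array 1 lay among the wild-type values. Its adjusted p went from 0.0625 to 0.0102, with a mutant mean near background. AT2G46250 (lower) and AT2G22750 (higher) were near background in both genotypes.

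Genes of amino acid breakdown, a pathway these factors are known to act on, did not pass the test without salt. Branched-chain amino acid breakdown was represented by 10 of 15 listed genes, of which 0 were called by limma, beside 0.211% of all probe sets. An unadjusted p under 0.05 was found for 4 of the 10, beside 2275 of all 22746 probe sets. Of the 10, 9 lay below 0, with a median of -0.16 beside -0.02 over all probe sets. MCCA encodes a subunit of methylcrotonyl-CoA carboxylase in leucine breakdown. It read 8.83, 9.16 and 8.96 in wild type and 8.53, 8.46 and 8.44 in the mutant, a difference of -0.51 (SE 0.18, adjusted p = 0.301) with no overlap. IVD, isovaleryl-CoA dehydrogenase of the same route, read 8.32, 8.22 and 8.42 in wild type and 7.90, 8.08 and 7.88 in the mutant, a difference of -0.37 (SE 0.17, adjusted p = 0.490). ETFQO, which passes electrons from such dehydrogenases to ubiquinone, differed by -0.22, and ALDH6B2, methylmalonate semialdehyde dehydrogenase, by -0.24. Under salt MCCA, ETFQO and ALDH6B2 stayed below 0 at 1 h, 3 h and 6 h, and IVD did not keep one direction. At 3 h MCCA and ETFQO differed by -0.09 and -0.06, and IVD was called higher in the mutant (0.55, adjusted p = 0.0478). At 6 h MCCA, IVD and ETFQO differed by -1.28, -0.79 and -0.50, and all 3 were called there, although the change from the control difference was not called for any of them (adjusted p = 0.409, 0.752 and 0.687).

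All 5 measured genes of amino acid turnover and starvation lay below 0, with a median of -0.24. By limma 0 were called, beside 0.211% of all probe sets. An unadjusted p under 0.05 was found for 1, beside 2275 of all 22746 probe sets. MGL, methionine gamma-lyase, read 7.07, 6.83 and 7.27 in wild type and 6.27, 6.36 and 6.32 in the mutant. The groups did not overlap, and the difference of -0.74 (SE 0.29) had an adjusted p of 0.382. AT4G33150, the lysine-degrading enzyme LKR/SDH, differed by -0.23 without salt and by -0.84 at 6 h, where it was called (adjusted p = 0.00294). AKINBETA1, a beta subunit of the SnRK1 kinase complex, differed by -0.17 without salt (adjusted p = 0.716) and by -0.69 at 6 h (adjusted p = 0.0217). At 3 h the median of the 5 genes was 0.16, and none was called by limma, beside 10.2% of all probe sets. AT4G33150 was at 0.16, AKINBETA1 at 0.15, MGL at 0.76 and AT5G38710, a proline dehydrogenase, at 0.63. PPDK, near background without salt, went the other way, at -0.35 at 3 h and -1.29 at 6 h. At 6 h 3 of the 5 were called lower by limma, beside 0.514% of all probe sets, and AT5G38710 lay at 0.09.

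The remaining pathway and marker lists gave no call by limma. Over all 22746 probe sets 0.211% were called and 2275 had an unadjusted p under 0.05. The 9 ATG8 genes of autophagy, 1 of them with an unadjusted p under 0.05, had a median of 0.02, with ATG8B at -0.30 (adjusted p = 0.386) and APG8H at 0.15 (adjusted p = 0.616). The 6 measured seed maturation and desiccation genes had a median of 0.07 (-0.05 without mutant array 1) and none had an unadjusted p under 0.05, among them COR15A at -0.25 and LEA4-5 at -0.19, near background. The clock gene GI differed by -0.09 and the alternative respiration gene NDB2 by -0.11. AT3G10040, the hypoxia response regulator HRA1, read 7.63, 7.51 and 6.71 in wild type and 7.76, 8.31 and 8.06 in the mutant, a difference of 0.76 (SE 0.35, adjusted p = 0.469). It was -1.47 at 3 h, a change of -2.23 (SE 0.49, adjusted p = 0.0286). BHLH101, a regulator of iron uptake, differed by 0.37 near background. Of the root hair markers EXPA7 read 8.23 ± 0.25 in wild type and 8.07 ± 0.35 in the mutant, and EXPA18 7.56 ± 0.22 and 7.71 ± 0.09 (SD, n = 3), so neither differed beyond its spread. None of the listed markers of endodermis, stele or root cap was measured under a single name. Of 288 members of 15 gene families grouped by symbol, from glycosyltransferases to expansins, 1 was called, beside 0.211% of all probe sets. The called member was BZIP53, itself one of the disrupted genes.

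Of 20 listed genes that respond early to handling, touch and jasmonate, 3 were measured. By limma 0 were called, beside 0.211% of all probe sets. None had an unadjusted p under 0.05, beside 2275 of all 22746 probe sets. The 3 genes, ORA47, STZ and WRKY53, varied widely among arrays of the same group. ORA47, an AP2/ERF factor of the jasmonate response, read 5.15, 4.73 and 9.99 in wild type and 9.13, 5.78 and 4.54 in the mutant. CML37, a calmodulin-like calcium sensor that is not on the list and was picked for its wide spread, read 3.38, 3.63 and 8.75 in wild type and 8.79, 5.95 and 4.96 in the mutant. In both genes wild-type array 3 and mutant array 1 were high together, and the same 2 arrays were the highest in each of the 10 named genes with the widest spread. STZ, a zinc finger repressor induced by many stresses, read 7.75, 9.77 and 12.23 in wild type and 12.05, 10.91 and 10.19 in the mutant. Its difference of 1.13 (SE 0.68, adjusted p = 0.607) and that of WRKY53, 0.26 (SE 0.57, adjusted p = 0.926), were within the spread, and the WRKY53 difference was -0.34 without mutant array 1. These genes were not called, and the 6 arrays cannot settle a genotype difference in them, since the ORA47 difference moved between -1.47 and 1.54 according to the array left out. In the salt arrays ORA47 was high in both genotypes, with group means between 10.81 and 11.27.

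**Figure D5:**
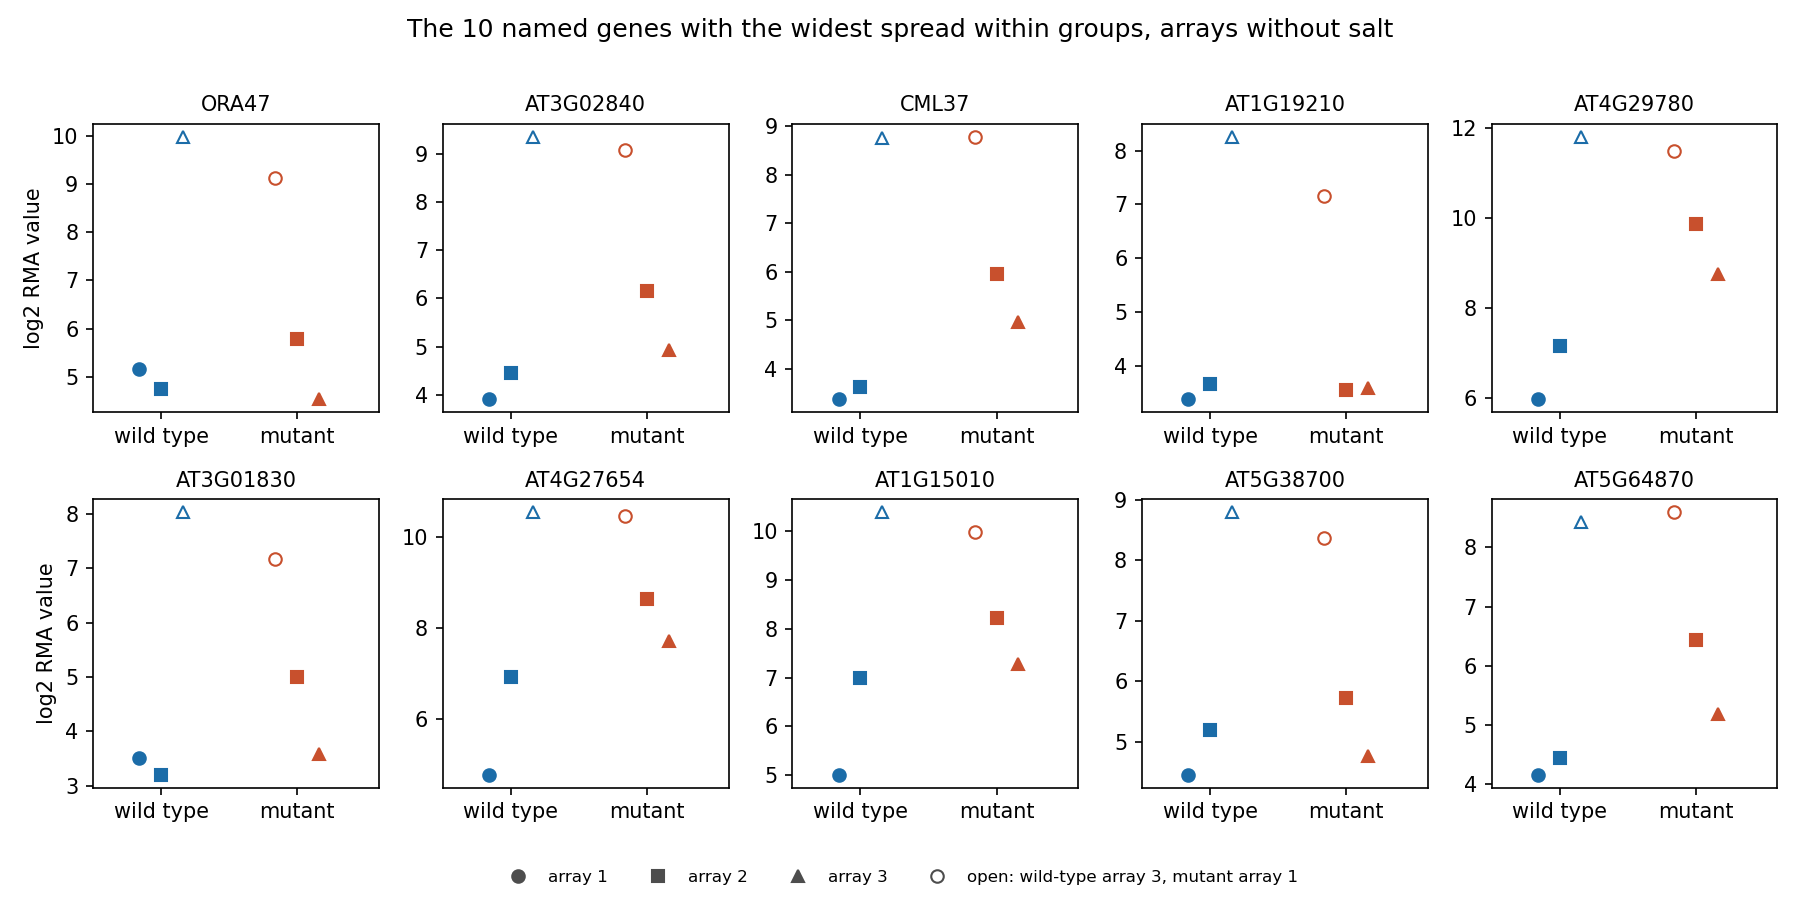
log2 RMA value on each control array for the 10 named genes with the widest spread within groups; symbols give the array number and open symbols mark wild-type array 3 and mutant array 1. The 2 open symbols are the highest values in every panel.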

How the data were processed

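Root RNA was hybridised to Affymetrix ATH1 arrays after one-cycle biotin labelling, per the labels' protocols. The deposited log2 values were produced by the authors with RMA in affy, with limma and the TAIR9 build also named, per the submitters' processing notes; RMA subtracts background, equalises the distribution of values across arrays and sums probes, so shifts common to most genes are removed before any test. Probe sets were named from the platform's gene table: 13513 had 1 gene, 503 several and 8730 none, and 13436 matched a RefSeq table (names and gene order only). No sequence or coordinate was used.

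A group-means model over all 24 arrays (8 groups, 16 residual degrees of freedom) was fitted with limma 3.58.1 in R 4.3.3, without a filter, with eBayes and Benjamini-Hochberg adjustment over 22746 probe sets. It was tested on simulated data first. Group means under 5 are called near background. The precision is limited by the number of arrays: an exact two-sided permutation test of 3 against 3 arrays cannot go below p = 0.1.

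Named genes are the targeted genes, called probe sets with 1 gene (up to 30), the 2 highest and 2 lowest called probe sets without one, up to 4 members with the smallest p in each list, and genes called only without mutant array 1; plastid and mitochondrial genes are given as whole lists, and those with the widest spread within groups, nuclear photosystem genes, OTP genes and some uncalled plastid genes were picked after their values were seen. The members and lists were chosen with earlier results of these data known. Whether replicate numbers pair the arrays was not settled. Deviations from group means correlated at -0.40, 0.21 and -0.54 for numbers 1, 2 and 3, and at 0.51 between wild-type array 3 and mutant array 1. Deviations within a group of 3 sum to 0, so these values depend on each other. Alternatives covered the arrays in the fit, a replicate block, array weights, the variance prior, a filter, rescaling and stricter thresholds.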

Additional observations from a re-analysis of the deposited data

Results flagged for a closer look

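The genotype difference itself changed between untreated and salt-treated roots, by limma's test of that change, for 11 of the named genes and probe sets called without salt. They were chosen by their control difference, which is one term of the change, so that choice favours changes of opposite sign to it. At 3 h the difference was 0.76 further below 0 for BZIP53 (a change of -0.76, adjusted p = 0.0158), and it was smaller for 248499_at (a change of -0.64, adjusted p = 0.0458). At 6 h it had moved upward in 9 organelle genes: by 1.90 for cox1, 1.22 for matK, 1.03 for rps2, 1.48 for rpoC2, 1.24 for rpl36, 1.96 for ycf3, 1.40 for nad4, 0.93 for orfX and 1.63 for petL. The adjusted p of these 9 lay between 0.00338 and 0.0400, and without mutant array 1, 13 of the probe sets then called without salt had changed at 6 h.

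Outside the plant genes, mutant array 1 carried bacterial control transcripts that the other 23 arrays did not show. Its dap3 probe set read 8.20 (at most 3.43 elsewhere), thr3 7.02 (at most 3.82), phe3 5.16 (at most 3.32) and lys3 4.57 (at most 3.51). Such transcripts are added on purpose during labelling, and the labels do not mention them for this array. With 3 arrays per group no single array was tested as an outlier.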

How the results depend on the processing

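No called gene changed direction, and 248606_at was called under all alternatives run on single genes. 8 uncalled ones did change direction. With 1 array left out ORA47 ranged from -1.47 to 1.54, WRKY53 from -0.34 to 1.11, LTI30 from -0.095 to 0.22, LEA4-5 from -0.49 to 0.040, AT2G21640 from -0.29 to 0.15, EXPA7 from -0.33 to 0.016, bZIP44 from -0.13 to 0.0033 and AT5G15700 from -0.082 to 0.086. Without both arrays ORA47 was 0.21, EXPA7 0.15, AT2G21640 0.17 and LTI30 -0.020, with array weights AT2G21640 was 0.083 and LTI30 -0.0057, with centred arrays bZIP44 was 0.000708 and AT5G15700 0.063, and with repeated quantile normalization AT5G15700 was 0.043. Of the 48 calls, 2 were made with only the 6 arrays compared (same way at 1 h, 3 h and 6 h: 1, 2 and 1; changed at 3 h and 6 h: 0 and 1; plastid 0, mitochondrial 0). Leaving out 1 array gave 23 to 129 calls, 7 to 33 plastid, 1 to 5 mitochondrial and 0 to 1 in the other lists; called the same way were 5 to 6, 13 to 27 and 5 to 9, and changed 0 to 7, 2 to 13 and 4 to 31 at 1 h, 3 h and 6 h. The most calls came without mutant array 3 and the fewest without wild-type array 1. Without both wild-type array 3 and mutant array 1, an alternative chosen after seeing the data, 17 were called (plastid 4, mitochondrial 1; same way at 3 h 12; changed 1, 1 and 4). Array weights gave 62 calls (same way 16, 35 and 16; changed at 1 h and 3 h 1 and 14). Centring arrays on their medians gave 37 calls, 23 lower and 14 higher against 42 and 6 (same way at 3 h 13; changed at 1 h 1), and repeated quantile normalization 31 (same way at 3 h 13; changed at 1 h 1). Without probe sets of mean under 5 there were 63. An adjusted p under 0.01 left 14 (plastid 5, mitochondrial 1; same way at 3 h and 6 h 6 and 4; changed 0 and 3), and a fold of at least 2 left 19 (plastid 9, mitochondrial 1; same way 3, 2 and 3; changed 0 and 6); neither was applied to single genes. The replicate block gave 43 calls, 24 of the 30 named ones among them, and the pairing check could not settle whether such a block exists. Robust and trended priors gave 44 and 43. The cause of these shifts was not tested, beyond the fewer arrays or stricter thresholds used.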
